A study of Homo sapiens with 72 samples.

Results

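B4GAT1 and 4 other genes of dystroglycan and its sugar chains, POMT1, POMT2, POMGNT1 and DAG1, were followed across 6 small molecules in the human osteosarcoma cell line U2OS. These are 5 of the 60371 genes in the population RNA-seq files. B4GAT1 was chosen because it was among the largest falls with the translation inhibitor homoharringtonine (HHT) in these same wells, so its values with HHT are given as a description, with no test. The other 4 genes were chosen by pathway and were tested.

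U2OS cells in 24-well plates were exposed for 12 h to the vehicle DMSO in 18 wells, or to a compound at 100, 1000 or 10000 nM in 3 wells each, giving 72 wells. The compounds were HHT, triptolide (TPL), which blocks transcription by acting on the helicase XPB, the kinase inhibitors nilotinib, MK-2206 and pyrazolanthrone, and miglitol, an inhibitor of intestinal alpha-glucosidases. All wells hold the same unmodified line, and the sources used here do not say that wells of a group came from separate cultures, so p-values measure the spread between wells. Poly(A) RNA was sequenced per well, and library totals of expected counts ranged from 70767 to 68296309, with a median of 38.4 mil. 3 libraries held under 10 mil, namely TPL 100 nM replicate 2 with 70767 counts, DMSO replicate 10 with 460014 counts and 1 of the TPL 1000 nM wells. Of 8 osteoblast lineage markers, 4 had a median of at least 1 TPM in DMSO wells, SPARC at 2137 TPM and COL1A1 at 452 TPM among them, while SP7 and IBSP had a median of 0 TPM. Of 3 epithelial markers the keratin KRT8 was at 255 TPM, EPCAM at 2.38 TPM and CDH1 at 0.4 TPM, and the leukocyte, endothelial and muscle markers had medians below 1 TPM.

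Dystroglycan, the product of DAG1, links the extracellular matrix to the cytoskeleton. It binds laminin, agrin and perlecan through a long chain of alternating xylose and glucuronic acid, called matriglycan, which is built on a mannose attached to serine or threonine. POMT1 and POMT2 act together in the endoplasmic reticulum to add that mannose, and B4GAT1 adds the glucuronic acid that primes matriglycan for the LARGE enzymes. POMGNT1 adds N-acetylglucosamine to O-linked mannose in the Golgi, while POMGNT2 starts the glycan that carries matriglycan. Loss of any of these enzymes causes dystroglycanopathies, muscular dystrophies with brain and eye involvement.

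B4GAT1 (ENSG00000174684) lies on chromosome 11 at 66345374 to 66347629 of GRCh38, on the minus strand, with 2 exons. POMT1 (ENSG00000130714) lies on chromosome 9 at 131502789 to 131523806 on the plus strand, with 20 exons. POMT2 (ENSG00000009830) lies on chromosome 14 at 77274956 to 77320883 on the minus strand, with 21 exons. POMGNT1 (ENSG00000085998) lies on chromosome 1 at 46188683 to 46220305 on the minus strand, with 22 exons. DAG1 (ENSG00000173402) lies on chromosome 3 at 49468713 to 49535618 on the plus strand, with 3 exons. LURAP1 runs over 16972 bases of POMGNT1 and UCK1 over 6 bases of POMT1, both on the opposite strand. A stranded kit was used, but the strand setting of the counting is not given in the sources used here, so reads of such pairs may have been shared.

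In DMSO wells the substrate was the most abundant of the 5 mRNAs per length and the mannosyltransferase POMT1 the least. DAG1 had a median of 140 TPM over 18 wells, between 116 and 167 TPM. POMGNT1 followed with a median of 103 TPM, between 52.5 and 118 TPM. POMT2 had a median of 59.9 TPM, between 43.4 and 77.9 TPM. B4GAT1 was at 25.5 TPM, between 12.3 and 33.8 TPM, and POMT1 at 2.99 TPM, between 0 and 5.19 TPM. In 18 of 18 wells each gene stood above the next in this order, although the ranges over wells overlapped between DAG1 and POMGNT1 and between POMGNT1 and POMT2. The partners POMT1 and POMT2, which work as a complex, differed in mRNA level in every DMSO well.

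For the 4 genes that have an entry in the RefSeq promoter table (GRCh38.p14), the bases before the start site of the first entry are printed. They run 5′ to 3′ on the strand of the gene, leaving out bases that lie in an annotated exon. The stretches are chr3:49469882-49470131 for DAG1 (plus strand), chr1:46198458-46198684 for POMGNT1 (minus strand), chr9:131502668-131502788 for POMT1 (plus strand) and chr14:77320884-77320995 for POMT2 (minus strand). DAG1 and POMGNT1 have 2 entries each, and their stretches lie inside the gene bounds given above. These stretches therefore precede a start site within the gene, not its outermost start. Capitals mark the GC box GGGCGG on either strand.
DAG1: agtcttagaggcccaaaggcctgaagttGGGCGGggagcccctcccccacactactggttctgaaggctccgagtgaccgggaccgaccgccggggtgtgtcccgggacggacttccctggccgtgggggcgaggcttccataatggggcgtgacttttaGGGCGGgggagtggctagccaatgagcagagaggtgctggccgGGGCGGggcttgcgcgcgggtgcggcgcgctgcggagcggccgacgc
POMGNT1: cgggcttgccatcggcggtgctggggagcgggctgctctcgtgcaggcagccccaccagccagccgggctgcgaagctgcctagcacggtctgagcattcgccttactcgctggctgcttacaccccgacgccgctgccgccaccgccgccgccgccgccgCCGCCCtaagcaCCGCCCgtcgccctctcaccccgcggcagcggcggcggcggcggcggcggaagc
POMT1: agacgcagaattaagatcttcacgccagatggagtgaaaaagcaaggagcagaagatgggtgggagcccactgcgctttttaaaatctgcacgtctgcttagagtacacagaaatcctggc
POMT2: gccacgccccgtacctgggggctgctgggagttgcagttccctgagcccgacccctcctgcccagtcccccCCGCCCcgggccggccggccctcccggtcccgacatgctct
The whole window of 250 bases before the start held 3 GC boxes in DAG1, 3 in POMGNT1, 1 in POMT2 and 0 in POMT1. The GC box was present in 42.6% of 35116 windows of that length in the table. None of the 4 windows held TATAAA, which 10.7% of all windows held, and CCAAT was found in the window of DAG1 alone, against 32.0% of all windows. Motifs were searched on both strands.

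**Figure D1:**
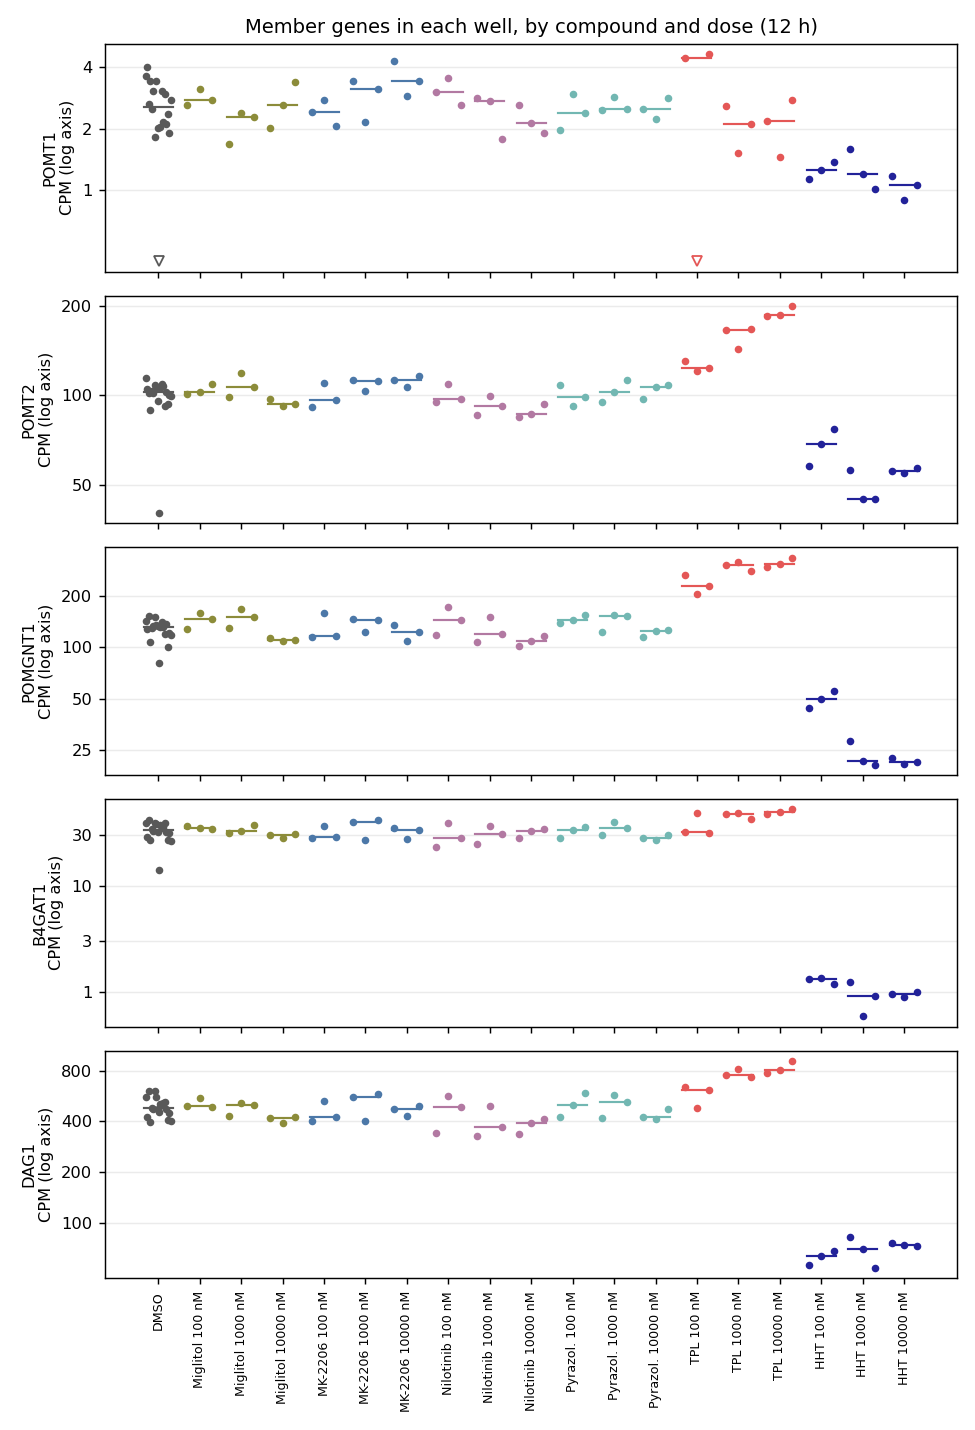
CPM (TMM-scaled, log axis) of POMT1, POMT2, POMGNT1, B4GAT1 and DAG1 in each of the 72 wells, by compound and dose. Each point is a well, the short line is the median of the group, and open triangles mark the 2 wells in which POMT1 is listed at 0. The HHT wells of B4GAT1 sit between 0.588 and 1.34 CPM, against 14 to 42.1 CPM in DMSO.

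B4GAT1 mRNA was at a small fraction of its DMSO level with HHT at every dose. Values per well are CPM, the counts of a gene per mil of the library's counts as scaled by TMM (a trimmed mean of M-values between libraries), and the DMSO wells lay between 14 and 42.1 CPM with a median of 33.5 CPM. With HHT the wells were at 1.32, 1.34 and 1.18 CPM at 100 nM. At 1000 nM they were at 1.23, 0.588 and 0.920 CPM, and at 10000 nM at 0.945, 0.892 and 1.0 CPM. All 9 HHT wells lay below every DMSO well, including the shallow DMSO replicate 10, which was the lowest of the 18, and each rested on 27 to 56 counts. The log2(Fold Change) was −4.70 ± 0.23 (SE, n = 3 wells against 18) at 100 nM, −5.20 ± 0.27 at 1000 nM and −5.17 ± 0.22 at 10000 nM. This left 3.85%, 2.71% and 2.78% of the DMSO level. By size of the fall B4GAT1 ranked 76 of 18848 genes tested at 100 nM, 47 of 19190 at 1000 nM and 72 of 19329 at 10000 nM. Over all alternatives in normalization, filter, test and wells left out, the value stayed between −4.92 and −4.53 at 100 nM, between −5.48 and −4.98 at 1000 nM and between −5.49 and −4.79 at 10000 nM. In bulk wells, fewer cells carrying a transcript and less of it per cell cannot be told apart.

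The other 4 genes fell with HHT too, by less than B4GAT1, which was chosen for the size of its fall. Here and below, rose and fell mean an adjusted p under 0.05 (edgeR quasi-likelihood test, Benjamini-Hochberg over all genes tested). 4 of 4 fell at each dose. Of all genes tested, 32.3% fell at 100 nM, 33.4% at 1000 nM and 37.2% at 10000 nM.

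DAG1, which encodes the glycosylated substrate, had the largest fall of the 4 at every dose. Its DMSO wells lay between 395 and 603 CPM with a median of 479 CPM. With HHT the wells were at 56.7, 63.9 and 68.0 CPM at 100 nM, at 82.3, 70.3 and 54.3 CPM at 1000 nM, and at 76.5, 74.7 and 72.7 CPM at 10000 nM. Every HHT well was below every DMSO well, and the 3 doses overlapped. The log2(Fold Change) was −2.95 ± 0.15 (adjusted p = 2.43e-14), −2.83 ± 0.17 (adjusted p = 2.44e-13) and −2.74 ± 0.13 (adjusted p = 5.38e-15), so that 12.9% to 14.9% of the DMSO level was left.

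The fall of POMGNT1, which extends the O-linked mannose, grew with dose. DMSO wells lay between 80.6 and 153 CPM with a median of 132 CPM. HHT wells were at 44.1, 49.6 and 55.7 CPM at 100 nM, at 28.4, 21.7 and 20.6 CPM at 1000 nM, and at 22.6, 20.7 and 21.4 CPM at 10000 nM. Every HHT well was below every DMSO well, and the 100 nM wells stood above all wells of the higher doses. The log2(Fold Change) was −1.35 ± 0.14 at 100 nM (adjusted p = 5.89e-09), −2.45 ± 0.16 at 1000 nM (adjusted p = 1.57e-12) and −2.60 ± 0.14 at 10000 nM (adjusted p = 2.53e-14). Across the 9 HHT wells the level changed by −0.64 ± 0.11 log2 units per 10-fold dose (adjusted p = 0.000947, edgeR). In that trend 22.9% of 18315 genes tested fell, and the slopes of DAG1 (0.09 ± 0.08), POMT1 (−0.17 ± 0.12) and POMT2 (−0.17 ± 0.09) did not pass, although that of DAG1 passed once a GC term per library entered the fit (adjusted p = 0.00689). The slope of B4GAT1 was −0.25 ± 0.14 and is given with no test.

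The initiating pair fell least. POMT2 lay between 40.3 and 114 CPM in DMSO wells, with a median of 103 CPM, and the lowest of these was the shallow DMSO replicate 10. With HHT it was at 58, 68.5 and 77.4 CPM at 100 nM, at 56.4, 44.9 and 45.0 CPM at 1000 nM, and at 55.8, 55.1 and 56.8 CPM at 10000 nM. These wells overlapped the 18 DMSO wells only through DMSO replicate 10, since the other 17 wells were at 89.3 CPM or more. The log2(Fold Change) of POMT2 was −0.54 ± 0.14 (adjusted p = 0.00187), −1.04 ± 0.15 (adjusted p = 1.70e-06) and −0.87 ± 0.13 (adjusted p = 2.80e-06) from the lowest to the highest dose. Scaling to the 13 mitochondrially encoded mRNAs ended the call at 100 nM (−0.64 ± 0.30, adjusted p = 0.0711).

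POMT1, the low partner, had 0 to 4.0 CPM in DMSO wells with a median of 2.56 CPM. The 0 was again DMSO replicate 10, where 0 of 460014 counts allow up to 6.52 CPM. With HHT it was at 1.14, 1.25 and 1.37 CPM at 100 nM, at 1.58, 1.2 and 1.01 CPM at 1000 nM, and at 1.17, 0.892 and 1.06 CPM at 10000 nM. All of these were below the other 17 DMSO wells, which had 1.82 CPM or more. The log2(Fold Change) was −1.08 ± 0.26 (adjusted p = 0.000921), −1.09 ± 0.27 (adjusted p = 0.000961) and −1.39 ± 0.26 (adjusted p = 4.30e-05). POMT1 and POMT2 kept 38.2% to 68.7% of their DMSO levels with HHT, against at most 3.85% for B4GAT1, the gene chosen by its fall.

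**Figure D2:**
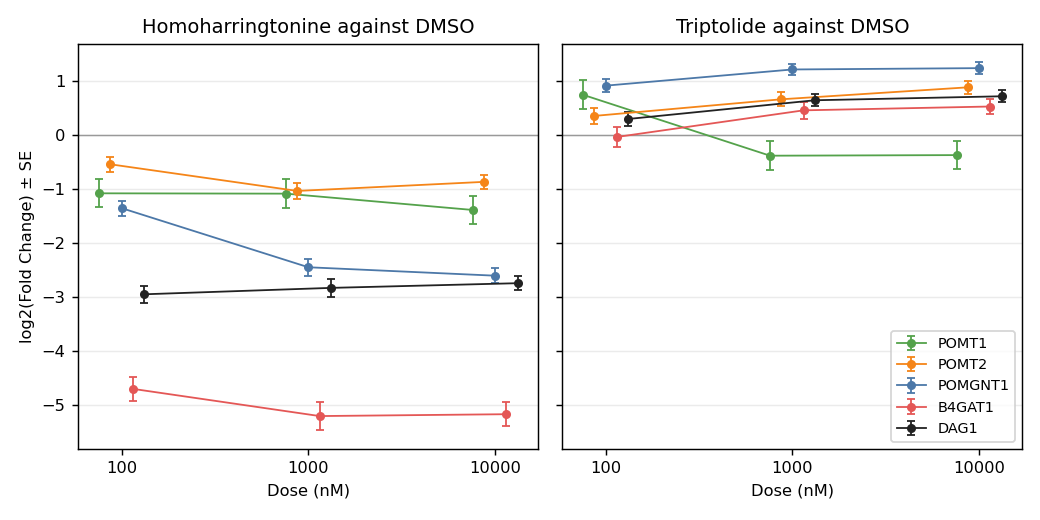
log2(Fold Change) against DMSO with its standard error (y axis) at 100, 1000 and 10000 nM (x axis) of HHT (left) and TPL (right), for the 5 genes. With HHT B4GAT1 lies between −5.20 and −4.70 and the other genes lie between −2.95 and −0.54, while with TPL POMGNT1 is highest at 1.24, a direction that reversed to −1.57 with scaling to mitochondrial mRNAs.

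TPL gave another order, and its directions depend on the scaling. With TMM, 4 of 5 genes rose at each TPL dose, where 24.5% (100 nM), 28.8% (1000 nM) and 32.2% (10000 nM) of all genes tested rose, and every one of these rises reversed in sign with scaling to the 13 mitochondrially encoded mRNAs. That scaling moved the median of all genes by −1.65, −2.47 and −2.75 log2 units at 100, 1000 and 10000 nM, and scaling by library size moved it by −0.34, −0.46 and −0.53. Changes are therefore also given relative to the median gene, which is nearly free of the scaling. The TPL and HHT comparisons share the 18 DMSO wells.

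B4GAT1 wells with TPL were at 32.2, 48.2 and 31.4 CPM at 100 nM, at 47.2, 49.0 and 42.9 CPM at 1000 nM, and at 47.6, 49.7 and 52.7 CPM at 10000 nM. All 6 wells of the higher doses lay above every DMSO well, while the 100 nM wells overlapped them. At 100 nM the log2(Fold Change) was −0.04 ± 0.19 (adjusted p = 0.888) with TMM and −1.69 with mitochondrial scaling. B4GAT1 rose by 0.46 ± 0.15 at 1000 nM (adjusted p = 0.0108), which reversed to −2.01 with mitochondrial scaling and whose call was lost without replicate 2 (0.41, adjusted p = 0.0534). That call was also lost with library sizes only (0.011, adjusted p = 0.953, edgeR). B4GAT1 rose by 0.53 ± 0.14 at 10000 nM (adjusted p = 0.00225), which reversed to −2.28 with mitochondrial scaling and to −0.0060 with library sizes only. Relative to the median gene B4GAT1 stood 0.05 to 0.70 log2 units higher over the 3 TPL doses and 4 scalings.

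POMGNT1 had the largest TPL change of the 5 at every dose with TMM and the smallest with mitochondrial scaling. Its wells were at 265, 205 and 227 CPM at 100 nM, at 301, 318 and 278.6 CPM at 1000 nM, and at 295, 309 and 335 CPM at 10000 nM, all above every DMSO well in CPM. It rose by 0.91 ± 0.13 (adjusted p = 1.17e-06), 1.21 ± 0.11 (adjusted p = 5.52e-10) and 1.24 ± 0.11 (adjusted p = 1.64e-10), which reversed to −0.69, −1.25 and −1.57 with mitochondrial scaling. Relative to the median gene it stood 1.02 to 1.46 log2 units higher under the 4 scalings.

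POMT2 wells with TPL were at 131, 120 and 124 CPM, then at 166, 144 and 167 CPM, and at 184, 187 and 200 CPM from the lowest to the highest dose. All 9 were above every DMSO well in CPM. POMT2 rose by 0.35 ± 0.15 (adjusted p = 0.0408), 0.66 ± 0.13 (adjusted p = 6.10e-05) and 0.88 ± 0.12 (adjusted p = 3.88e-07), which reversed to −1.25, −1.81 and −1.91 with mitochondrial scaling. At 100 nM it also reversed to −0.34 when 10 counts were required in every well, and the call was lost when replicate 1 (0.35, adjusted p = 0.145) or replicate 3 (0.40, adjusted p = 0.0893) was left out. With library sizes only, POMT2 lost its calls at 100 and 1000 nM (0.05 and 0.21, adjusted p = 0.791 and 0.115, edgeR). Its TPL dose trend was 0.21 ± 0.07 log2 units per 10-fold dose (adjusted p = 0.0476), where 6.93% of genes tested rose, and the slope reversed to −0.30 (adjusted p = 0.0274) with mitochondrial scaling. That call was lost without replicate 1, 2 or 3 (adjusted p = 0.292, 0.0919 and 0.304, edgeR), and no other member passed the TPL dose trend with TMM in edgeR.

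DAG1 wells with TPL were at 639, 482 and 617 CPM, then at 758, 817 and 733 CPM, and at 770, 811 and 914 CPM from the lowest to the highest dose. The 6 wells of the higher doses lay above every DMSO well and TPL 100 nM replicate 2, the library of 70767 counts, lay within them. DAG1 rose by 0.30 ± 0.13 (adjusted p = 0.0471), 0.64 ± 0.11 (adjusted p = 1.85e-05) and 0.72 ± 0.11 (adjusted p = 3.07e-06), which reversed to −1.29, −1.83 and −2.10 with mitochondrial scaling. Relative to the median gene DAG1 stood 0.42 to 0.89 log2 units higher and POMT2 0.43 to 1.05 log2 units higher over the 3 doses and 4 scalings. At 100 nM the value of DAG1 reversed to −0.36 when 10 counts were required in every well, and the call was lost in DESeq2 (0.29, adjusted p = 0.0532) and without replicate 1 (0.26, adjusted p = 0.174) or replicate 3 (0.29, adjusted p = 0.140). With library sizes only, DAG1 lost its call at every TPL dose (0.03, 0.19 and 0.18, adjusted p = 0.835, 0.141 and 0.157, edgeR).

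POMT1 was the gene of the 5 that did not pass at the 2 higher TPL doses with TMM. Its TPL wells were at 4.43, 0 and 4.62 CPM at 100 nM, at 2.57, 1.51 and 2.11 CPM at 1000 nM, and at 2.17, 1.45 and 2.77 CPM at 10000 nM. The 0 was in the library of 70767 counts, where it allows up to 42.4 CPM. At 100 nM POMT1 rose by 0.74 ± 0.27 (adjusted p = 0.0212), which reversed to −0.96 with mitochondrial scaling and was lost in DESeq2 (0.70, adjusted p = 0.0967) and without replicate 1 (0.78, adjusted p = 0.113) or replicate 3 (0.72, adjusted p = 0.107). This call was lost with library sizes only as well (0.40, adjusted p = 0.237, edgeR). At 1000 nM the log2(Fold Change) of POMT1 was −0.38 ± 0.27 (adjusted p = 0.217) and at 10000 nM −0.37 ± 0.25 (adjusted p = 0.190) with TMM, against −2.88 and −3.14 with mitochondrial scaling and −0.84 and −0.91 with library sizes only. Relative to the median gene POMT1 was at 0.83 to 0.90 log2 units at 100 nM under the 4 scalings. At the 2 higher doses it was at −0.22 to −0.17, below the median gene, unlike the other members.

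Compared directly at the same dose, mRNA of the 4 tested genes was higher with TPL than with HHT in 11 of 12 comparisons (edgeR, 3 wells against 3). At 100 nM 4 of 4 were higher with TPL, where 29.7% of 16468 genes tested were. At 1000 nM 3 of 4 were higher, against 27.9% of all genes, and POMT1 did not pass (0.70 ± 0.38, adjusted p = 0.140). At 10000 nM 4 of 4 were higher, against 41.4%. The difference for DAG1 was 3.32 ± 0.19, 3.46 ± 0.19 and 3.55 ± 0.08 log2 units from the lowest to the highest dose, and for POMGNT1 2.34 ± 0.18, 3.65 ± 0.19 and 3.93 ± 0.08. Both genes stayed higher with TPL under every alternative. POMT2 was higher with TPL by 0.97 ± 0.18, 1.69 ± 0.18 and 1.84 ± 0.07, which reversed to −0.65, −0.73 and −0.75 with mitochondrial scaling. POMT1 was higher by 1.90 ± 0.33 at 100 nM and by 1.09 ± 0.25 at 10000 nM, and the latter reversed to −1.48 with mitochondrial scaling and to −0.24 once a GC term per library entered the fit. Its call at 100 nM was lost in DESeq2 (1.69, adjusted p = 0.180) and with mitochondrial scaling (0.23, adjusted p = 0.595), and that at 10000 nM with library sizes only (0.51, adjusted p = 0.0724). The call of POMT2 at 100 nM was lost when 10 counts were required in every well (0.16, adjusted p = 0.236). For B4GAT1, given with no test, the difference was 4.74, 5.65 and 5.78 log2 units.

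With nilotinib, MK-2206, pyrazolanthrone and miglitol few differences from DMSO passed the test. All wells lay inside the DMSO range in 47 of 60 groups of wells, and for B4GAT1 in 12 of 12. The other 13 groups had a well above the range for POMGNT1 (6 groups), POMT2 (2) and POMT1 (1), or below it for DAG1 (4). The shallow DMSO replicate 10 set the lower end for all members but DAG1. Against the other 17 wells, B4GAT1 had a well below with nilotinib at 100 nM (23.4 CPM) and 1000 nM (24.8 CPM). So did POMT2 with 1000 and 10000 nM nilotinib (85.9 and 84.6 CPM), and POMT1 with 1000 nM miglitol (1.67 CPM) and 1000 nM nilotinib (1.78 CPM). The share of all genes inside their DMSO range is not given here. Of 60 comparisons of the 5 genes over these compounds and doses, 1 passed in edgeR (4 at an unadjusted p under 0.05) and 1 in DESeq2 (7 unadjusted), and in all 60 the wells overlapped the DMSO wells. The share of all genes tested that rose or fell in edgeR, from 100 to 10000 nM, was 9.08%, 3.95% and 14.4% with nilotinib, 4.77%, 0.0% and 7.65% with pyrazolanthrone, 0.0648%, 1.52% and 3.15% with MK-2206, and 0.0% at each dose of miglitol. Where edgeR called 0 genes, 1033 had an unadjusted p under 0.05 and DESeq2 called 8 with 1000 nM pyrazolanthrone, while with miglitol 944, 1563 and 4195 had an unadjusted p under 0.05 and DESeq2 called 1, 120 and 0. DAG1 fell with 10000 nM nilotinib, where its wells were at 335, 394 and 416 CPM, by a log2(Fold Change) of −0.35 ± 0.12 (adjusted p = 0.0412), a dose at which 6.39% of all genes fell. The call was lost without replicate 1 (−0.26, adjusted p = 0.339) or replicate 2 (−0.38, adjusted p = 0.124). The 12 values of B4GAT1 ran from −0.28 to 0.13, with 95% intervals that together span −0.57 to 0.46. POMT1 ran from −0.34 to 0.39 with intervals between −0.82 and 0.83. Ordered by median CPM, the B4GAT1 levels of the 12 groups of these compounds, the DMSO wells and TPL 100 nM overlapped from neighbour to neighbour, between 28.2 CPM with 10000 nM pyrazolanthrone and 40.1 CPM with 1000 nM MK-2206.

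The wider pathway was read from a list of 48 genes in 4 groups, of which 47 remain without B4GAT1. With HHT 22 fell and 7 rose of 42 tested at 100 nM, 24 fell and 8 rose of 42 at 1000 nM, and 26 fell and 11 rose of 45 at 10000 nM. The median log2(Fold Change) of the tested list was −0.47, −0.42 and −0.55, against −0.03, −0.01 and −0.05 over all genes tested, among which 32.3%, 33.4% and 37.2% fell and 31.1%, 35.0% and 36.7% rose. Of the 14 O-mannosylation and matriglycan enzymes besides B4GAT1, with POMT1, POMT2 and POMGNT1 among them, 9, 7 and 8 fell and 1, 2 and 2 rose from the lowest to the highest dose. At 10000 nM the largest falls were of POMGNT2, which starts the glycan that carries matriglycan (101 ± 13.9 to 6.27 ± 0.15 CPM, SD, log2(Fold Change) −4.05, adjusted p = 7.82e-17), and of LARGE2, which extends matriglycan (8.75 ± 2.35 to 0.892 ± 0.094 CPM, −3.37, adjusted p = 3.61e-12). Next came HSPG2, which encodes the ligand perlecan (264 ± 47.2 to 33.5 ± 4.59 CPM, −3.01, adjusted p = 1.33e-12). The largest rises were of SGCZ and DMD, sarcoglycan zeta and dystrophin, and of SLIT2. SLIT2, a secreted guidance protein that binds dystroglycan, went from 21.9 ± 2.93 to 95.6 ± 4.09 CPM (2.08, adjusted p = 7.12e-16, edgeR). SGCZ and DMD were at 0.017 and 0.019 CPM in DMSO and at 0.503 and 0.354 CPM with HHT. They passed the filter only through the HHT wells, so the filter fixed their direction. Their rises are a description, although both are counted among the 11 that rose. Of the 8 ligand genes, all tested at that dose, 5 fell and 3 rose. At each lower dose the filter left out 1 of these 8, and 2 rose. It also left out 1 of them in every comparison of another compound with DMSO. So 1 ligand gene entered at 10000 nM through the HHT wells, and the filter may have fixed its direction too. The counts of 3 ligand genes and 11 list genes that rose are therefore a description.

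With TPL 21 of the 47 rose and 9 fell at 100 nM, 27 rose and 8 fell at 1000 nM, and 25 rose and 7 fell at 10000 nM, of 42 tested with TMM, and with mitochondrial scaling the count turned to 1 that rose and 35 that fell at 100 nM and to 0 that rose and 41 that fell at each higher dose. Of all genes tested 24.5%, 28.8% and 32.2% rose and 32.3%, 38.6% and 39.7% fell with TMM. The median of the tested list was 0.26, 0.54 and 0.67, against −0.16, −0.21 and −0.17 over all genes. With mitochondrial scaling it turned to −1.38, −1.95 and −2.12, against −1.81, −2.68 and −2.92 over all genes. The share of all genes that fell with that scaling is not given here, so its counts are not read as a result about the list. Among the 10 genes of dolichol-phosphate-mannose supply, which makes the mannose donor of POMT1 and POMT2, 6 rose and 3 fell at 10000 nM with TMM. The 3 largest falls of the whole list at 10000 nM were of DOLK, the dolichol kinase (24.1 ± 2.45 to 0.757 ± 0.206 CPM, log2(Fold Change) −5.03, adjusted p = 6.40e-18), of CHST10, a sulfotransferase that caps the glycan (60.5 ± 7.17 to 5.39 ± 0.39 CPM, −3.55, adjusted p = 3.59e-17), and of PMM2, a phosphomannomutase (69.5 ± 5.53 to 8.14 ± 0.76 CPM, −3.14, adjusted p = 3.29e-18). LARGE2 had the largest log2(Fold Change) with TMM (8.75 ± 2.35 to 55.8 ± 0.93 CPM, 2.58, adjusted p = 3.68e-14), followed by SSPN (1.62) and SGCE (1.56), sarcospan and sarcoglycan epsilon, and with mitochondrial scaling these 3 values reversed to −0.25, −1.11 and −1.20. DOLK fell with HHT too, by 1.34 log2 units.

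**Figure D3:**
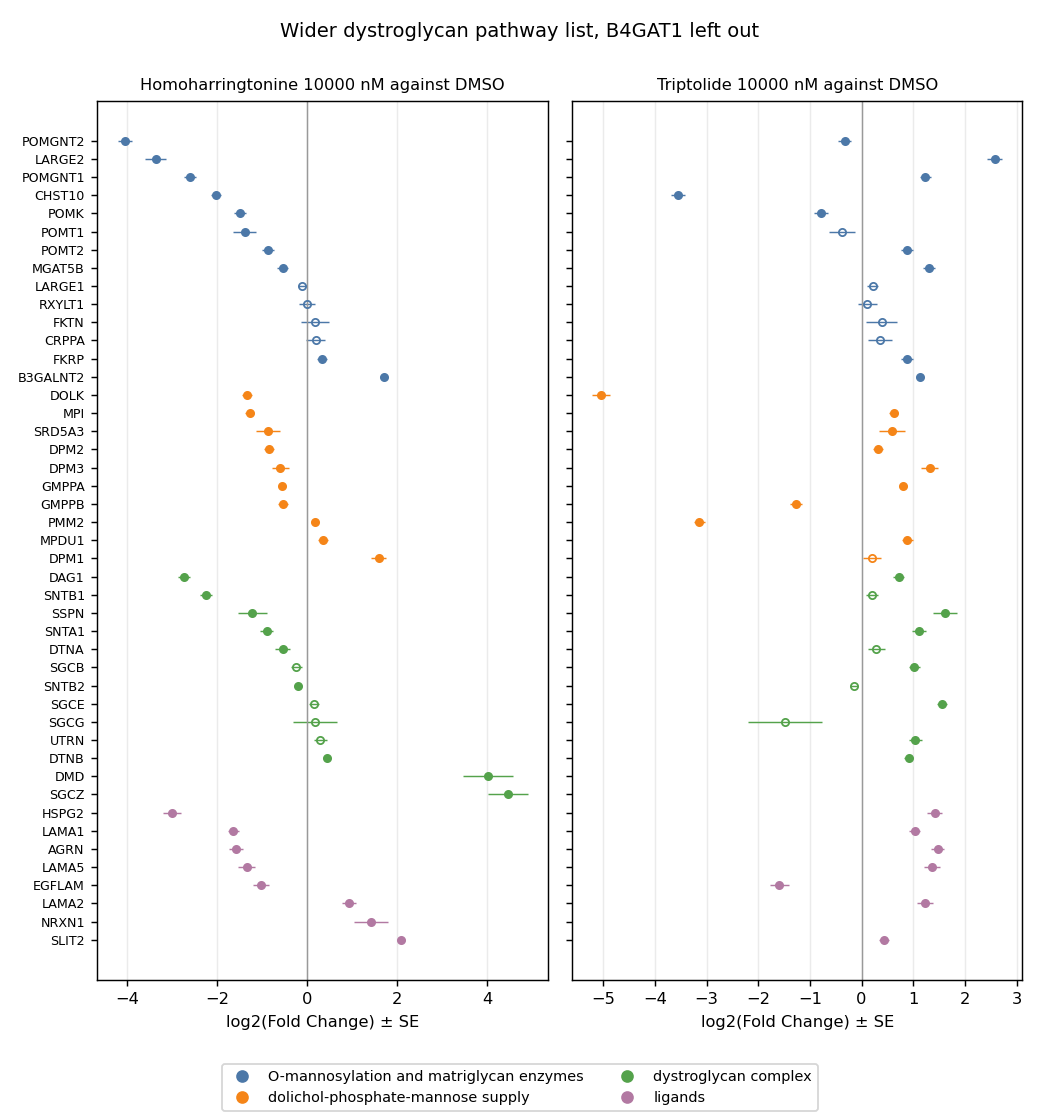
log2(Fold Change) against DMSO with its standard error (x axis) for the tested genes of the wider pathway list without B4GAT1 (y axis), with 10000 nM HHT (left) and 10000 nM TPL (right, TMM scaling). Colours mark the 4 groups of the list, and filled points passed the test. SGCZ, DMD and 1 ligand gene passed the filter only through the HHT wells. With HHT 26 of 45 genes fell, POMGNT2 the most, against 37.2% of all genes tested. With TPL 7 of 42 fell, DOLK the most, against 39.7% of all genes. The TPL count became 41 of 42 with mitochondrial scaling, where the median of all genes was −2.92.

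At 10000 nM pyrazolanthrone 1 of 42 tested genes of the list rose and 4 fell, where 7.65% of all genes rose or fell. With nilotinib 3 of 42 rose and 1 fell, against 14.4%, and with MK-2206 0 rose and 1 fell, against 3.15%. With pyrazolanthrone the syntrophin SNTB1 rose (0.63), and HSPG2 (−0.70), DTNA (−0.56) and MGAT5B (−0.45) were the 3 largest falls. With nilotinib LAMA1 (0.66), GMPPA (0.32) and PMM2 (0.31) rose and DAG1 fell, and with MK-2206 SNTB1 fell (−0.49). Dystrobrevin is the product of DTNA and a laminin chain that of LAMA1. With miglitol 0 of 126 tests of the list passed in edgeR (17 at an unadjusted p under 0.05) and 0 in DESeq2 (20 unadjusted).

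At the B4GAT1 locus 11 other annotated genes overlap the window of 50 kb either side, of which 5 were expressed enough to be tested. B4GAT1-DT, a divergent noncoding transcript whose start lies 321 bases upstream of the B4GAT1 start, was low in DMSO (0.294 ± 0.159 CPM, SD, n = 18). It fell with HHT to 0.027 ± 0.026, 0.062 ± 0.055 and 0.037 ± 0.018 CPM (log2(Fold Change) −3.32 ± 0.72, −2.34 ± 0.61 and −3.05 ± 0.62, adjusted p = 0.00031, 0.00161 and 0.00012). SLC29A2, a nucleoside transporter starting 24585 bases upstream, fell with HHT from 12.0 ± 1.54 CPM to 3.10 ± 0.96, 1.49 ± 0.20 and 1.43 ± 0.08 CPM (−1.94, −3.01 and −3.10, adjusted p = 2.09e-13 at 1000 nM).

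On the other side, BRMS1, a chromatin-associated repressor whose start lies 2504 bases downstream, fell at the higher HHT doses (−0.96 ± 0.19, adjusted p = 8.37e-05, and −1.42 ± 0.17, adjusted p = 4.77e-08) and had −0.32 ± 0.16 at 100 nM (adjusted p = 0.0942). RIN1, a Ras effector starting 10789 bases downstream, fell too (−0.79, −0.45 and −0.45), with the call at 1000 nM lost under mitochondrial scaling (adjusted p = 0.239). TMEM151A, starting 55735 bases downstream, rose with HHT from 2.56 ± 0.92 CPM to 8.16 ± 2.45, 10.3 ± 3.14 and 7.41 ± 0.40 CPM. The HHT values of these 5 neighbours ran from rises to falls. With TPL, B4GAT1-DT did not pass at any dose with TMM (−0.86 ± 0.73, −0.37 ± 0.60 and −0.45 ± 0.51) and passed at each with mitochondrial scaling (−2.50, −2.90 and −3.16). TMEM151A fell with TPL at each dose (−2.97, −2.94 and −2.63).

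**Figure D4:**
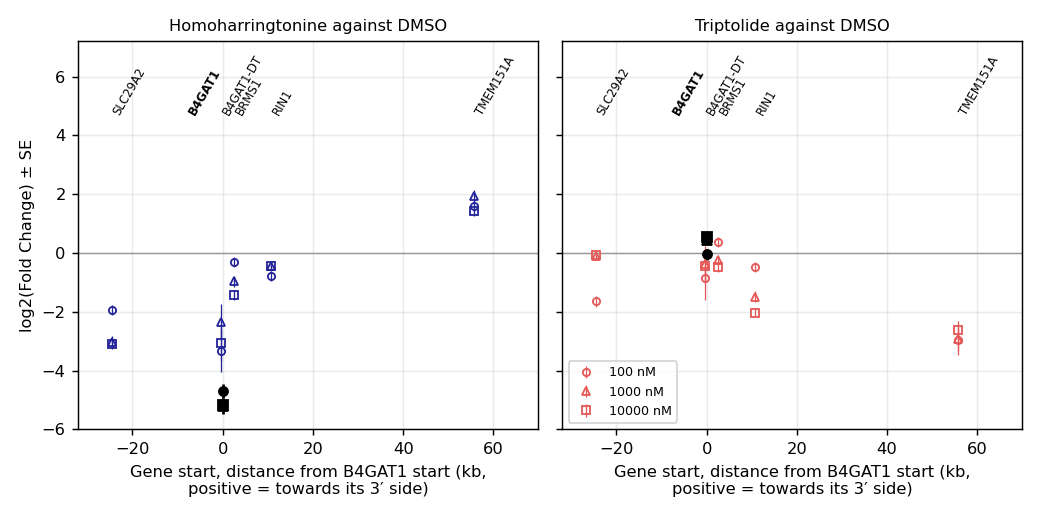
log2(Fold Change) against DMSO with its standard error (y axis) of B4GAT1 (black) and the 5 tested neighbouring genes (coloured) by the distance of their start from that of B4GAT1 in kb (x axis), with HHT (left) and TPL (right, TMM scaling). With HHT the values run from −5.20 for B4GAT1 to 1.94 for TMEM151A.

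The files also give, per gene and well, the mean length of the transcripts that reads were assigned to. B4GAT1 has 1 transcript in the files and a constant length of 2072 bases. For the other 4 genes 72 comparisons with DMSO were made (two-sided exact permutation test of 3 wells against 18, Benjamini-Hochberg over the 72), of which 6 passed and 12 had an unadjusted p under 0.05. Lengths of other genes were not tested, so no share over all genes stands beside these counts. Whether such shifts are particular to these genes was not tested. The smallest p this design allows is 0.000752. With a replicate left out, 2 wells against 18 allow no p below 0.00526, so that with 72 tests the dependence on single wells could not be read.

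DAG1 reads shifted to shorter transcripts with HHT at the 2 higher doses. In DMSO wells the length was 5213 ± 94.5 bases (SD, n = 18), between 5124 and 5522 bases. With HHT the wells were at 5238, 4911 and 5070 bases at 100 nM, at 4984, 4869 and 4749 bases at 1000 nM, and at 4914, 4583 and 5021 bases at 10000 nM. All 6 wells of the higher doses were below every DMSO well. The exact permutation test gave p = 0.000752 at each of these doses, the smallest possible (adjusted p = 0.0271), for differences of −346 and −374 bases. Without the libraries under 10 mil the differences were −328 and −356 bases (adjusted p = 0.0158, exact permutation test against 17 wells).

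POMT1 reads were assigned to longer transcripts with HHT at 100 nM and with TPL at 100 and 10000 nM. The other doses of these compounds did not pass, so the calls did not follow dose. The difference was −9.09 bases with 1000 nM TPL (adjusted p = 0.975, exact permutation test). With 1000 and 10000 nM HHT it was 147 and 271 bases (adjusted p = 0.487 and 0.120, exact permutation test). In DMSO the mean was 1521 ± 142 bases (SD, n = 18). The HHT 100 nM wells were at 1676, 2101 and 1873 bases (adjusted p = 0.0271, exact permutation test) and the TPL 10000 nM wells at 1730, 1901 and 1836 bases (adjusted p = 0.0325, exact permutation test). The HHT 100 nM wells rested on 41 to 49 POMT1 counts, and POMT1 has 16 transcripts in the files. The TPL 100 nM wells were at 2076, 1723 and 2024 bases (adjusted p = 0.0271, exact permutation test). Replicate 2 there and DMSO replicate 10 have no POMT1 counts and carry the same length of 1723 bases, so that this value comes from no reads. Without the libraries under 10 mil, POMT1 kept these 3 calls, with TPL 100 nM at adjusted p = 0.0468 (exact permutation test, 2 wells against 17). All 6 calls were kept without those libraries and 3 were added. The added calls were DAG1 longer by 100.3 and 103 bases with 100 and 10000 nM pyrazolanthrone (adjusted p = 0.0211 and 0.0395, exact permutation test) and POMT2 shorter with 10000 nM HHT (−732 bases, adjusted p = 0.0395, exact permutation test). With all libraries, POMT2 was shorter with 100 nM pyrazolanthrone, at 1777 ± 80.7 against 2639 ± 452 bases (adjusted p = 0.0361, exact permutation test).

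**Figure D5:**
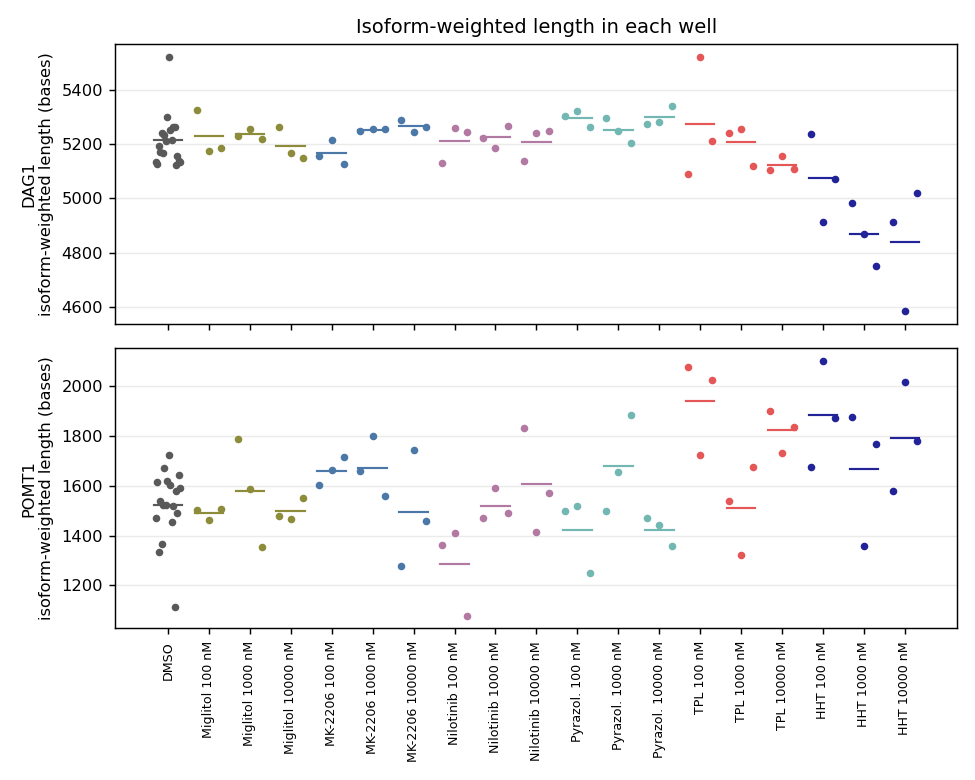
Isoform-weighted transcript length in bases (y axis) of DAG1 (top) and POMT1 (bottom) in each of the 72 wells by compound and dose (x axis); the short line is the mean of the group. DAG1 lies at 4583 to 5021 bases in the 6 wells with 1000 or 10000 nM HHT and at 5124 bases or more in the DMSO wells.

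Over the 19 conditions, the median log2(CPM + 1) of B4GAT1 followed that of DAG1 most closely among the members, with a Pearson correlation of 0.985. Over the 16 conditions without HHT it was 0.842, close to that of B4GAT1 with POMT2 (0.836). For POMT1 the correlation with B4GAT1 was 0.799 and −0.283 without HHT. These are descriptions over conditions that share a scaling and the DMSO wells enter as 1 condition. Among 10719 protein-coding genes with a mean of at least 5 CPM, the patterns most like that of B4GAT1 were those of TCF19 (0.994), DEXI (0.991), BRD3OS (0.990), LRRC45 (0.988) and ENTREP3 (0.988). These 5 rest in part on the HHT conditions, whose B4GAT1 values chose this gene. By Spearman correlation LRRC45 alone of them remained among the nearest 5 (0.909). Without the HHT conditions it again remained alone and came out first (0.960). The nearest patterns were those of C21orf58 and PEX6 for POMT1 (0.926 each), of SLC37A4 (0.976) and PACS2 (0.974) for POMT2, of B4GALT2 (0.993) for POMGNT1, and of IGSF3 (0.993) and PCDHB2 (0.992) for DAG1. For these 4 members, none of the genes named stayed among the nearest 2 by Spearman correlation or without the HHT conditions.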

How the data were processed

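72 U2OS wells were analysed by population RNA-seq of poly(A) RNA. The authors deposited per-gene RSEM tables holding expected counts, TPM, FPKM and transcript lengths (unit other), and the submitters' notes name HTSeq, RSEM, DESeq2 and GRCh38 with no versions. The aligner of these files is not given in the sources used here.

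The members, lists and tests were chosen with earlier results of these data known. Gene symbols came from GENCODE v44 (56104 of 60371 IDs matched). Expected counts were rounded, filtered with filterByExpr (smallest count 10), scaled by TMM and tested with edgeR 4.0.16 (glmQLFit, glmQLFTest) in R 4.3.3, in 1 fit per compound and dose with all 18 DMSO wells, with Benjamini-Hochberg adjustment over all genes tested. DESeq2 1.42.0, used by the study, was an alternative, with other scalings, filters, left-out wells and covariates. TPM and FPKM, deposited as ratios per length, served for levels between genes. Isoform-weighted lengths were tested with exact permutations (scipy 1.17.1). Scripts were tested on simulated data. The depth of 70767 to 68296309 counts limits low genes in 3 wells. Limits on a count of 0 use 3 counts and cover counting error only, since the libraries carry no molecular identifiers.

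Named were all members, all genes within 50 kb of B4GAT1, the 3 largest rises and falls of the wider list per compound at 10000 nM, and the nearest patterns (5 for B4GAT1, 2 for each other member, of which 1 for POMGNT1 is not reported here). Cell type markers were read in DMSO wells.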

Additional observations from a re-analysis of the deposited data

How the results depend on the processing

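Alternatives changed one choice at a time, except that the replicate block also cut the DMSO wells to replicates 1 to 3. The falls of the members with HHT kept their direction in all of them, and of their 12 calls mitochondrial mRNA scaling ended that of POMT2 at 100 nM, and a required change above 1 log2 unit left 10. Main counts of calls over 3 doses were 12 for the members and 97 for the wider list with TPL, 98 for the list with HHT, 0 and 8 with pyrazolanthrone, 1 and 9 with nilotinib, 0 and 0 with miglitol, 0 and 1 with MK-2206, 2 for the dose trends and 6 for the isoform-weighted lengths. With a change above 1 log2 unit also required, 2 members and 48 list calls were left with TPL, 57 list calls with HHT, and 0 list calls with pyrazolanthrone, nilotinib or MK-2206, the nilotinib member count being 0 too. With library sizes only, 6 member calls with TPL and 13 list calls with pyrazolanthrone were made, and B4GAT1 with 10000 nM TPL turned to −0.0060.

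DESeq2 gave list counts of 13 with pyrazolanthrone, 15 with nilotinib and 2 with MK-2206, and 6 dose trends, and lost 3 member calls, those of POMT1 and DAG1 with 100 nM TPL and of POMT1 for TPL against HHT at 100 nM. Mitochondrial mRNA scaling gave list counts of 1 with pyrazolanthrone, 31 with nilotinib and 0 with MK-2206, 5 members with nilotinib and 15 dose trends. It reversed TPL values at 100, 1000 and 10000 nM to −1.25, −1.81 and −1.91 for POMT2, to −0.69, −1.25 and −1.57 for POMGNT1 and to −1.29, −1.83 and −2.10 for DAG1. It also reversed POMT1 at 100 nM (−0.96) and B4GAT1 at 1000 nM (−2.01) and 10000 nM (−2.28), and for TPL against HHT it reversed POMT2 (−0.65, −0.73 and −0.75) and POMT1 at 10000 nM (−1.48). Without a filter, list counts were 4 with pyrazolanthrone, 4 with nilotinib and 0 with MK-2206, with 0 nilotinib members and 1 dose trend. With at least 10 counts in every well, 53 list calls with TPL, 0 members with nilotinib and 0 list calls with MK-2206 were left, and at 100 nM TPL POMT2 (−0.34) and DAG1 (−0.36) reversed. Without the libraries under 10 mil the MK-2206 list count was 2. A GC slope covariate gave list counts of 15 with pyrazolanthrone, 21 with nilotinib and 6 with MK-2206, 4 nilotinib members and 4 dose trends, and reversed POMT1 for TPL against HHT at 10000 nM (−0.24). The cause of these changes was not tested. The share of all genes called under each alternative is not given here. The counts above and below therefore show how calls move with a setting and are no result about the members or the list.

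Leaving out 1 replicate number at a time, list counts ran from 1 to 8 with pyrazolanthrone, from 3 to 17 with nilotinib and from 0 to 1 with MK-2206, nilotinib members from 0 to 1, dose trends stayed at 1, and lengths at 0, a count nearly fixed by the 2 wells left. The same number on wells of different groups marks no shared source in the labels. The correlation of deviations from the group means averaged 0.0197 over pairs of wells with the same number and −0.0114 otherwise, and the lowest same-number pair had −0.892, so the numbers were not taken as pairs. With the replicate number as a block (DMSO replicates 1 to 3), counts were 2 members and 16 list calls with pyrazolanthrone, 3 and 14 with nilotinib and 3 and 18 with miglitol, and DAG1 with 100 nM TPL turned to −0.031. Depth limits POMT1, at a few CPM, and every value of the 3 libraries under 10 mil.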
